A study of Mus musculus with 22 samples.

Results

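The comparison set 7 allografts grown from CRC cells against the 3 CRC cultures of the same genotypes, 10 of the 22 libraries of the series, chosen by their titles. The series concerns culture of primary cancer cells, and CRC in the titles goes with conditional reprogramming, a way of keeping epithelial cells dividing in culture, usually on irradiated fibroblasts and with an inhibitor of ROCK kinase. All cells came from mammary glands of C57Bl/6 nulliparous females, carried 1 mutant Trp53 allele and had Cre driven by the MMTV promoter, which is active mainly in mammary epithelium. The CYP19A1 genotype added an inducible human aromatase transgene (Tet-op-CYP19A1 with MMTV-rtTA). The Brca1het genotype had 1 conditional Brca1 allele (fl11) beside a wild-type one, and the Brca1hom genotype had 2. There was 1 CRC culture a genotype. Allograft 6C was CYP19A1, allografts 10B, 10C and 11C were Brca1het, and allografts 1, 2 and 12 were Brca1hom. The allografts were generated in the mammary gland of nude hosts, NU (NCr)-Foxn1nu, which lack a thymus and so nearly all T cells but keep macrophages, neutrophils, NK cells and vessels. No age is given in the labels, and it is not stated whether allografts with tags such as 10B and 10C shared a host, so the p-values reflect only how these libraries vary, which may in part be technical.

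Epithelial cells are held together by desmosomes and by adherens and tight junctions, stand on a basement membrane through hemidesmosomes, and carry keratin filaments: Krt5 and Krt14 in basal cells, Krt8 and Krt18 in luminal cells. When epithelial cells change towards a mesenchymal state, transcription factors of the Zeb, Snai and Twist families, several of which bind E-box sequences, become active, junction genes fall silent and the cells make vimentin, collagens and proteases. In mouse mammary tumours this change is known above all from the spindle-cell type.

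The unit is FPKM, in which a gene's fragments are divided by its length and by the size of the library. Differences were estimated with limma on log2(FPKM + 1) with genotype in the model, so a difference of 1 is a doubling for genes well above 1 FPKM and less for low genes. A gene entered the test when its mean over the 10 libraries reached 1 FPKM. Of the 12261 such genes 2930 (23.9%) were higher in the allografts and 2652 (21.6%) lower at a Benjamini-Hochberg adjusted p under 0.05. Together these were 5582 genes, or 45.5% of those tested, so a list with such shares does not stand apart from the background. The median difference over all tested genes was 0.03. A gene near 0 in 1 group could pass the filter only through the other group, so its direction was largely set in advance. Groups did not overlap for 5042 genes (41.1%), and 4634 of the called genes both had no overlap and moved the same way in all 3 genotypes. Without the Brca1het culture 3624 genes were called, of which 3568 were also called with all libraries. FPKM does not state depth, and FPKM sums ranged from 479206 to 618933. Ratios of the smallest values gave a rough guide to depth. By it 1 fragment was worth 1.46 to 1.80 times as many FPKM in the cultures as in allograft 10C. In the other allografts it was worth 0.966 to 1.37 times as many. The cultures were thus the shallower libraries by this guide, so values near 0 were less finely measured in them. Libraries correlated across genes at 0.945 to 0.981 among the cultures, at 0.839 to 0.976 among the allografts, and at 0.677 to 0.711 between cultures and allografts. Allograft 1 stood apart, at 0.839 to 0.894 with the other allografts, while the pairs 2 and 12 (0.976) and 10B and 10C (0.968) were the most alike.

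**Figure D1:**
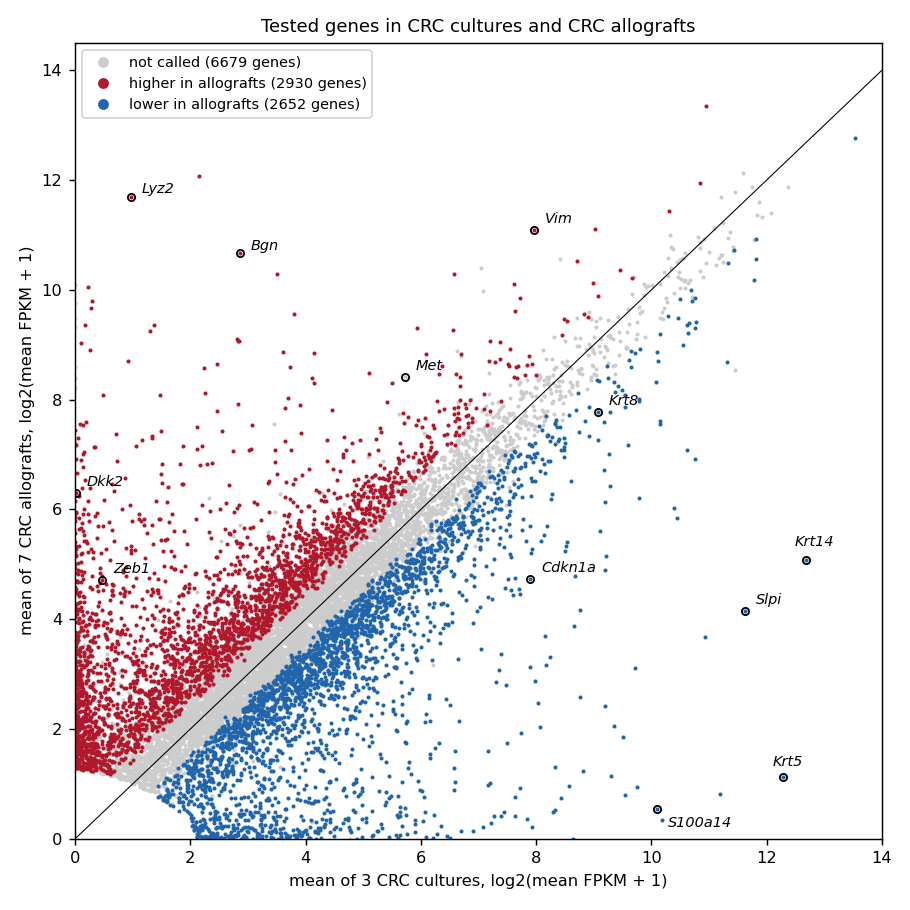
Each point is 1 of the 12261 tested genes, with the mean of the 3 CRC cultures on the x axis and the mean of the 7 CRC allografts on the y axis, both as log2(mean FPKM + 1); colour gives the call and the line marks equal levels. The 2652 lower genes reach the floor of the y axis at high culture levels (Krt5, S100a14), and the 2930 higher genes include many that were near 0 in culture (Lyz2, Dkk2).

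The genes of the genotypes were measured first. Brca1, needed for repair of DNA breaks by homologous recombination, stood at 3.95, 3.897 and 2.55 FPKM in the CYP19A1, Brca1het and Brca1hom cultures, the order kept for all culture values below, and at a median of 3.31 FPKM, range 2.41 to 5.26, in the allografts (log2 difference −0.04 ± 0.22 (SE), adjusted p = 0.907). A gene total does not show whether exon 11 was present, so it does not check the Brca1 labels. Trp53 was at 26.7, 19.3 and 13.3 FPKM in the cultures and a median of 15.1 FPKM, range 7.02 to 32.6, in the allografts (log2 difference −0.10 ± 0.28 (SE), adjusted p = 0.783). Mouse Cyp19a1 was listed at 0 in all but allograft 10C (0.0106 FPKM), and the transgene is the human gene, so the CYP19A1 label was not checked either. Foxn1, which is mutant in the hosts and active in keratinocytes, was at 1.48, 2.03 and 1.41 FPKM in the cultures and 0 to 0.0174 in the allografts, below the filter of the test. Among the receptors, Esr1 was at 1.55, 1.14 and 1.13 FPKM in culture and a median of 0.751 FPKM, range 0.411 to 3.08, in the allografts (log2 difference −0.26 ± 0.33 (SE), adjusted p = 0.537). Pgr stayed under 0.15 FPKM in every library. Erbb2 was at 13.4, 17.6 and 13.8 FPKM in the cultures and a median of 3.45 FPKM, range 1.86 to 14.98, in the allografts, with allograft 1 alone at a culture level (log2 difference −1.76 ± 0.49 (SE), adjusted p = 0.0162). That call was lost without the CYP19A1 culture (adjusted p = 0.0658) or allograft 6C (0.06399), and without the Brca1het culture (0.0951). Leaving out either CYP19A1 library gave the same log2 difference, −1.59, so those fits are not separate checks.

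Markers of host cell types were high in the allografts. All 17 macrophage genes of the list rose, against a background of 23.9% higher. Their levels summed to 12.3 to 55.8 FPKM in the cultures and 5037 to 15903 in the allografts. Mean log2(FPKM + 1) over the list was 0.431 to 0.467 in the cultures. Members that low in culture passed the filter only through the allografts, so this count could hardly have come out otherwise. Lyz2 (lysozyme) was at 0.4700, 1.095 and 1.28 FPKM in the cultures and a median of 1897 FPKM, range 1412 to 7658, in the allografts, and the complement gene C1qa at 0.166, 0.324 and 0 and a median of 1005 FPKM, range 481 to 1624. Apoe, a lipid carrier made by macrophages among others, stood at 1.68, 4.61 and 4.004 FPKM in culture and a median of 3166 FPKM, range 2173 to 12218, in allografts. Of 14 tested endothelial genes 13 rose, among them Pecam1 (0.169 to 0.603 FPKM in cultures, 12.1 to 41.9 in allografts) and Cdh5 (0.0698 to 0.136 and 12.8 to 48.1). The same limit of the filter holds for this count, as the endothelial list averaged 0.432 to 0.565 on the log2(FPKM + 1) scale in the cultures. Of 7 tested pericyte genes 5 rose and 2 fell. Rgs5 was at 0.0928 to 0.232 FPKM in the cultures and 2.400 to 9.55 in the allografts. Notch3 fell, with 9.18 to 12.03 FPKM in the cultures and 0.5898 to 1.62 in the allografts. Mcam also fell, with 31.96 to 98.02 and 8.76 to 44.3 FPKM, and its groups overlapped. Without the Brca1het culture 3 pericyte genes were called higher and 1 lower, and Mcam also lost its call without the Brca1hom culture or without allograft 10B, 10C, 2 or 12, with no filter, without genotype in the model and with 10B and 10C averaged. Summed over the pericyte list, levels overlapped, at 43.7 to 112 FPKM in the cultures and 39.6 to 109 in the allografts. Haemoglobin RNA (Hbb-b1) was at 0.896 to 1.98 FPKM in the cultures and 85.6 to 1404 in the allografts, a called rise, the globin of red blood cells. Of 15 T, B and NK cell genes 3 passed the filter, through the allografts alone, and all 3 were called higher: Cd4 (0 to 0.0144 FPKM in the cultures, 0.719 to 4.696 in the allografts), Nkg7 (listed at 0 in the cultures, 1.21 to 9.94) and Gzma (listed at 0, 0.618 to 31.03). Without the Brca1hom culture Cd4 alone was called, and Gzma also lost its call without either other culture or without allograft 6C, 10B, 10C, 11C or 2, with no filter, with Brca1het and Brca1hom only and with 10B and 10C averaged. Their list summed to 0.1397 to 0.493 FPKM in the cultures and 9.64 to 60.01 in the allografts. Among those not tested, Cd3e did not exceed 2.29 FPKM, Cd79a 0.597 and Ncr1 1.67. In bulk RNA, fewer cells of a type and less RNA per cell cannot be told apart, and this holds for every result below.

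Muscle and fat genes behaved differently. None of the 13 tested skeletal muscle genes and none of the 7 tested adipocyte genes was called, and both sets were present in the cultures. Acta1, the skeletal muscle actin, was at 21.9, 37.2 and 124 FPKM in the cultures and a median of 24.4 FPKM, range 0.425 to 207, in the allografts. Ckm, muscle creatine kinase, was at 3.24, 9.02 and 23.9 FPKM in culture and a median of 4.48 FPKM, range 0.235 to 67.7, in allografts, highest in 10C. Adipoq, the fat cell hormone adiponectin, was at 1.11, 2.78 and 4.17 and a median of 2.42 FPKM, range 0.0434 to 8.398. For all 3 genes the CYP19A1 culture was lowest and the Brca1hom culture highest, and the source of this RNA in the cultures was not tested. Without allograft 10C, 4 muscle genes were called lower in the allografts.

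The basal keratins nearly vanished. Krt5 was at 5049.6, 5457 and 4450.1 FPKM in the cultures, among the most abundant RNAs there, and at a median of 0.135 FPKM, range 0.0113 to 4.02, in the allografts (log2 difference −11.32 ± 0.52 (SE), adjusted p = 3.37e-07). Krt17, a keratin of proliferating and wounded epidermis, went from 2478, 2148 and 2404 FPKM to a median of 0.441 FPKM, range 0.0478 to 2.02 (log2 difference −10.36 ± 0.31 (SE), adjusted p = 6.54e-08). Its partner Krt6a went from 769, 1169.8 and 1542 to a median of 0.241 FPKM, range 0.0238 to 0.746 (log2 difference −9.81 ± 0.27 (SE), adjusted p = 4.25e-08). More Krt14 RNA was left: after 3653, 7582 and 8418 FPKM in culture it stood at a median of 6.34 FPKM, range 3.05 to 132, in the allografts, with 11C at 69.6 and 1 at 132 (log2 difference −9.10 ± 1.11 (SE), adjusted p = 1.50e-04). In the basal and stratified keratin list 7 of 8 tested members fell, against a background of 21.6% lower, and the summed level was 12501 to 17382 FPKM in the cultures and 4.31 to 137 in the allografts. Members near 0 in the allografts, such as Krt5, passed the filter only through the cultures. For Krt5, Krt17, Krt6a and Krt14 every allograft lay below every culture. The exception in the list was Krt10, a keratin of differentiating epidermis, at 0.772, 5.46 and 0.431 and a median of 1.05 FPKM, range 0.441 to 3.601 (adjusted p = 0.697).

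Simple keratins fell less evenly. Krt8 was at 220.1, 725 and 664 FPKM in the cultures and remained at 202 to 366 FPKM in 6 allografts, with 17.6 in allograft 6C (log2 difference −2.01 ± 0.35 (SE), adjusted p = 0.00144). The Krt8 call was lost without genotype in the model (adjusted p = 0.142). Its partner Krt18 was at 238, 943 and 672 FPKM in culture and a median of 74.4 FPKM, range 18.1 to 183, in allografts, again lowest in 6C (log2 difference −3.28 ± 0.38 (SE), adjusted p = 1.13e-04). The Krt8 values overlapped between the groups and the Krt18 values did not. Krt7 fell from 65.97, 417 and 376 FPKM to a median of 1.61 FPKM, range 0.565 to 42.3, and Krt19 from 58.96, 192 and 49.9 to a median of 3.83 FPKM, range 0.309 to 6.74, 2 keratins of luminal and ductal cells. Krt8 was named after its values were seen. Of the epithelial markers checked, Krt8 and Krt18 were thus present in every allograft, and so was the basal keratin Krt14, as given above. Krt19 ranged from 0.309 to 6.74 FPKM there, and Trp63 did not exceed 0.409 FPKM and Elf5 1.35 in any. The values of Krt5, Epcam and Cdh1 are given in their own paragraphs.

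**Figure D2:**
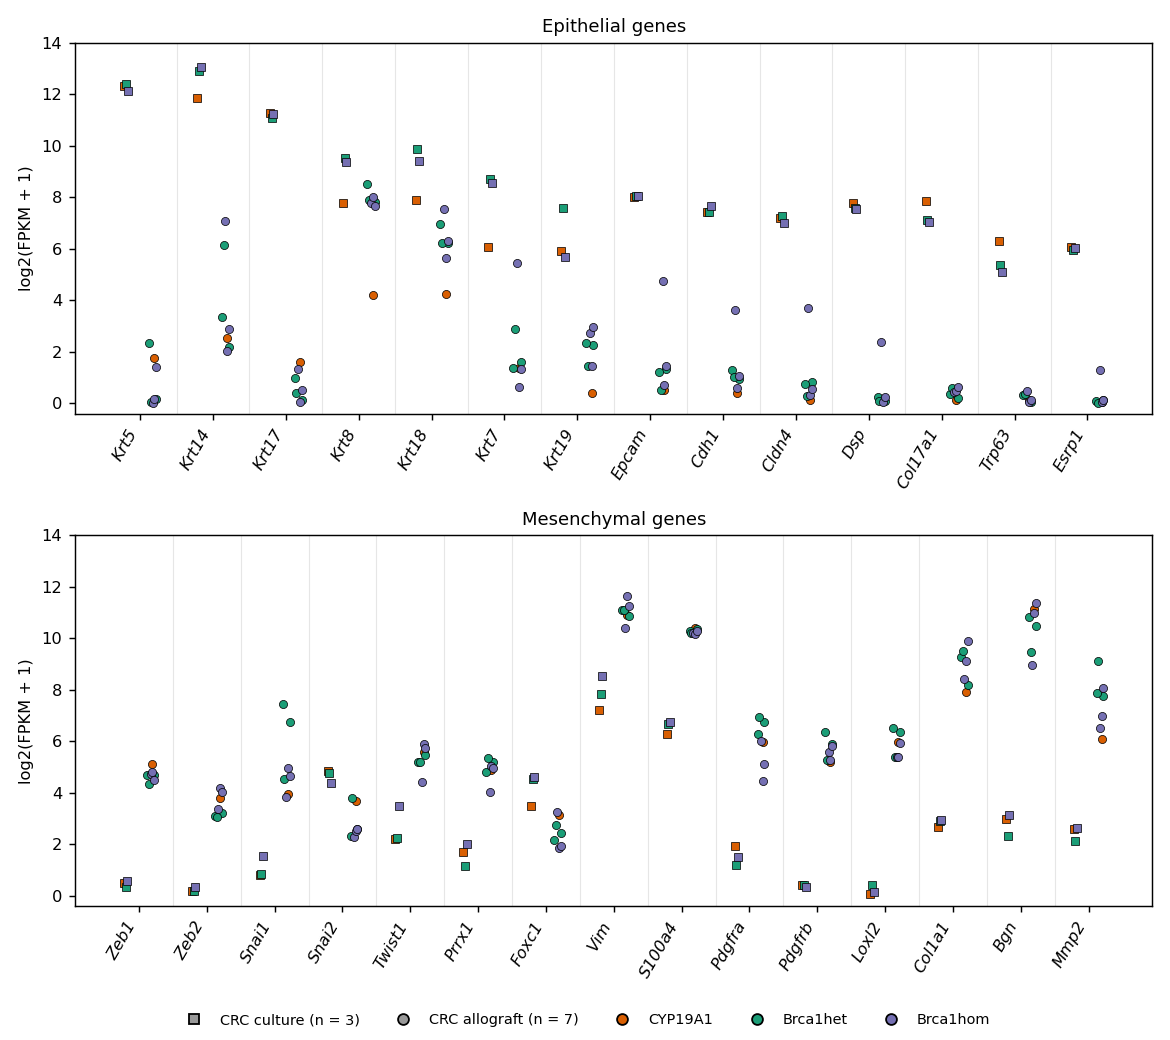
Points are single libraries (squares, 3 CRC cultures; circles, 7 CRC allografts; colour, genotype) on a y axis of log2(FPKM + 1) for genes named on the x axis. Most epithelial genes lie low in the allografts while Krt8 and Krt18 stay high in 6 of 7, allograft 1 lies above the other allografts for Epcam, Cdh1, Cldn4 and Dsp, and of the mesenchymal genes only Snai2 and Foxc1 lie lower in the allografts.

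The cell junction genes moved together. All 12 tested desmosome genes fell (median difference −5.25), as did all 18 tested genes of adherens and tight junctions (−4.12) and 8 of 9 of the hemidesmosome with its laminin (−4.57). The median over all tested genes was 0.03. In the allografts the desmosome list averaged 0.523 to 2.26 and the junction list 0.683 to 2.24 on the log2(FPKM + 1) scale. Members near 0 there, such as Dsp, passed the filter only through the cultures, so their fall could hardly have come out otherwise. Dsp, the desmosomal plakin, was at 219.7, 189.6 and 184 FPKM in the cultures and a median of 0.0778 FPKM, range 0.03705 to 4.24, in the allografts (log2 difference −7.19 ± 0.47 (SE), adjusted p = 2.67e-06). Col17a1, a hemidesmosome collagen, went from 233, 138 and 129 FPKM to a median of 0.364 FPKM, range 0.0928 to 0.553 (log2 difference −6.90 ± 0.23 (SE), adjusted p = 6.76e-08). Lamb3, a chain of the laminin that hemidesmosomes anchor to, went from 137, 81.5 and 64.8 to a median of 0.377 FPKM, range 0.0338 to 6.78. Plec, the plakin found in many cell types besides, was the member not called, at 10.7, 11.4 and 15.9 FPKM in culture and a median of 28.7 FPKM, range 7.097 to 56.1, in allografts (adjusted p = 0.263). The groups did not overlap for Dsp, Col17a1 and Lamb3. Perp, a desmosome gene that is also a p53 target, fell from 1934, 1878 and 2024 to a median of 6.88 FPKM, range 1.804 to 28.1.

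Of the junction genes, Cdh1 (E-cadherin) was at 169, 169 and 199 FPKM in the cultures and a median of 1.003 FPKM, range 0.328 to 11.2, in the allografts (log2 difference −6.34 ± 0.57 (SE), adjusted p = 1.99e-05). Epcam, a surface adhesion protein of epithelia, was at 253, 264 and 266 FPKM and a median of 1.33 FPKM, range 0.419 to 25.6 (log2 difference −6.66 ± 0.76 (SE), adjusted p = 9.93e-05). Cldn4, a tight junction claudin, stood at 146, 155 and 127 and a median of 0.485 FPKM, range 0.0806 to 11.8 (log2 difference −6.32 ± 0.67 (SE), adjusted p = 6.21e-05). In all 3 the highest allograft was number 1, at 11.2, 25.6 and 11.8 FPKM, while the other 6 allografts did not exceed 1.42, 1.74 and 0.772 FPKM. Without allograft 1 all 18 junction genes were again called lower.

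Regulators of the epithelial state fell too. Of 19 tested epithelial transcription and splicing factors 18 fell and 0 rose, with a median difference of −3.75. Mean log2(FPKM + 1) over this list was 0.738 to 1.54 in the allografts, so the limit of the filter holds for members near 0 there. Trp63, the master factor of basal cells, was at 77.5, 40.03 and 32.8 FPKM in the cultures and a median of 0.104 FPKM, range 0.0219 to 0.409, in the allografts (log2 difference −5.28 ± 0.25 (SE), adjusted p = 3.52e-07). Esrp1, the splicing factor that sets epithelial exons, went from 66.98, 60.9 and 64.8 to a median of 0.0553 FPKM, range 0.0212 to 1.42 (log2 difference −5.80 ± 0.28 (SE), adjusted p = 4.07e-07). Ehf, an epithelial Ets factor, went from 24.7, 54.98 and 66.6 to a median of 0.105 FPKM, range 0.0311 to 2.41. Cebpa, which is also active in myeloid and fat cells, was the exception with 8.78, 12.1 and 9.88 FPKM in cultures and a median of 16.5 FPKM, range 8.94 to 28.2, in allografts (adjusted p = 0.166); without the Brca1het culture it was called higher. In the luminal list 8 of 10 tested genes fell, among them Elf5, the factor of alveolar progenitors (0.986, 14.1 and 40.6 FPKM in culture, 0 to 1.35 in allografts), and Wnt4, a paracrine signal of luminal cells (13.8, 15.3 and 9.35 and 0.0432 to 0.1897).

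E-boxes were counted in promoters of the junction and epithelial factor lists as a description only, and no link to any factor was tested. The E-box searched was CACCTG, which reads CAGGTG on the other strand. RefSeq promoter windows (GRCm38.p6, 250 bases before to 50 after the start; the expression values were made on mm9) were matched for 11 of the 19 junction genes and 10 of the 21 epithelial factors, of which Foxa1 and Foxn1 were not tested and Cebpa was not called. At least 1 E-box stood in 13 of 16 windows of the junction genes (81.2%) and in 6 of 13 windows of the epithelial factors (46.2%), against 6640 of all 32851 windows (20.2%). These letters were not tested as binding sites. Cdh1 had no matched window, and the untested Foxa1 and Foxn1 were among the epithelial factors with an E-box. Genes without an E-box fell too, among them Cldn1 (log2 difference −5.02), Cgn (−1.69), Grhl1 (−4.13) and Ovol2 (−2.61). Only promoters that hold an E-box are printed. In the sequences that follow, printed 5′ to 3′ on the gene's strand, E-boxes are in capitals. Crb3 and Elf3 were added to Epcam and Cldn4 after their values were seen. Epcam lies at chr17:87635729-87636028 (plus strand), Cldn4 at chr5:134946885-134947184 (minus strand), Crb3, an apical polarity gene with 4 E-boxes, at chr17:57061951-57062250 (plus strand), and Elf3, an Ets factor of epithelia, at chr1:135258423-135258722 (minus strand).
Epcam: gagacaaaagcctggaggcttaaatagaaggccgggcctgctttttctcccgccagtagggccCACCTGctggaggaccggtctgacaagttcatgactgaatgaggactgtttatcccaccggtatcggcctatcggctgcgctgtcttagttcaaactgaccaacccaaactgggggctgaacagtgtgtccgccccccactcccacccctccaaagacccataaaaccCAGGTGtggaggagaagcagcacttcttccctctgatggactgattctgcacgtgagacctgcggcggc
Cldn4: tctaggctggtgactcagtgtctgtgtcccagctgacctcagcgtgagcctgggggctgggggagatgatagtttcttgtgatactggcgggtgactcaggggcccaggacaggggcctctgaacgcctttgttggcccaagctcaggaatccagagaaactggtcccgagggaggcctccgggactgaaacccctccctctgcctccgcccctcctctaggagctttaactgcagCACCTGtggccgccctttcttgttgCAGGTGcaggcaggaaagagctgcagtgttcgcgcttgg
Crb3: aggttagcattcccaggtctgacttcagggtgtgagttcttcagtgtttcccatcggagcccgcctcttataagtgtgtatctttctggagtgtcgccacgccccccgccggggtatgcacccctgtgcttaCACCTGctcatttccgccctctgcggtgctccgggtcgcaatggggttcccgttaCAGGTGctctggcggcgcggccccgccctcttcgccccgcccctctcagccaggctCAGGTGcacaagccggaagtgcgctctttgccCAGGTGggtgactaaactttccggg
Elf3: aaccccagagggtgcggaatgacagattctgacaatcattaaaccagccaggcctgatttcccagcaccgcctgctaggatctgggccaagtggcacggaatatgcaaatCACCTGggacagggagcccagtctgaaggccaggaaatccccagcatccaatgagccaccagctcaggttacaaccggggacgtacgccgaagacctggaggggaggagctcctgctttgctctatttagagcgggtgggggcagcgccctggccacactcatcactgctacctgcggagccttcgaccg
Crb3 was at 27.7, 25.6 and 24.9 FPKM in the cultures and a median of 0.02403 FPKM, range 0 to 1.03, in the allografts (log2 difference −4.60 ± 0.25 (SE), adjusted p = 9.23e-07); Elf3 was at 42.3, 34.00 and 27.4 and a median of 0.0982 FPKM, range 0.0299 to 2.24 (log2 difference −4.76 ± 0.36 (SE), adjusted p = 6.97e-06).

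Keratinocyte differentiation and epithelial defence genes were high in the cultures. Of 20 tested cornified envelope and differentiation genes 19 fell. This list averaged 0.783 to 1.29 in the allografts on the log2(FPKM + 1) scale, so the same limit of the filter holds. Krtdap and Dmkn, both secreted by differentiating keratinocytes, fell from 1140.4, 962 and 477 FPKM to a median of 0.09001 FPKM, range 0 to 3.92, and from 565, 834 and 835 to a median of 0.384 FPKM, range 0.0515 to 2.28. Hal, a histidine-degrading enzyme of skin and liver, was the exception, at 0.0588, 0.179 and 0.0801 FPKM in cultures and a median of 2.72 FPKM, range 0.881 to 18.5, in allografts; its call was lost without the Brca1hom culture. In the antimicrobial and acute phase list 11 of 15 tested genes fell. S100a14 had the smallest p of all named genes, with 1182, 947 and 1145 FPKM in culture and a median of 0.412 FPKM, range 0.265 to 0.637, in allografts (log2 difference −9.56 ± 0.17 (SE), adjusted p = 2.72e-09). Slpi, a protease inhibitor of secretions, went from 3198, 2112 and 4201 to a median of 11.7 FPKM, range 1.72 to 42.7 (log2 difference −8.34 ± 0.73 (SE), adjusted p = 1.78e-05). The beta-defensin Defb14, at 143, 499 and 552 FPKM in the cultures, was listed at 0 in all 7 allografts. Saa3, an acute phase gene, did not pass the test: 6 allografts lay at 17.5 to 39.1 FPKM and allograft 1 at 1161, beside 4.89, 4.696 and 20.4 in culture (adjusted p = 0.145, and 0.0147 without allograft 1).

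Of 13 tested mesenchymal transition factors 11 rose and 2 fell, against backgrounds of 23.9% and 21.6%. Zeb1 and Zeb2, under 1 FPKM in every culture, passed the filter only through the allografts, so their direction could hardly have come out otherwise. The part of host cells, fibroblasts among them, in these values was not tested. Zeb1, a repressor of E-cadherin, was at 0.412, 0.269 and 0.4796 FPKM in the cultures and a median of 25.00 FPKM, range 19.6 to 33.5, in the allografts, with a narrow spread (log2 difference 4.29 ± 0.17 (SE), adjusted p = 1.92e-07). Zeb2 went from 0.144, 0.1400 and 0.287 FPKM to a median of 9.51 FPKM, range 7.48 to 17.1 (log2 difference 3.32 ± 0.22 (SE), adjusted p = 2.82e-06). Snai1, another repressor of E-cadherin, went from 0.751, 0.805 and 1.897 to a median of 24.2 FPKM, range 13.2 to 176, with 10B at 108 and 10C at 176 FPKM (log2 difference 3.92 ± 0.66 (SE), adjusted p = 0.00115). Prrx1, a factor of limb and connective tissue mesenchyme, rose from 2.22, 1.25 and 3.02 FPKM to a median of 30.6 FPKM, range 15.4 to 39.7 (log2 difference 3.28 ± 0.31 (SE), adjusted p = 2.62e-05). The 2 that fell were Snai2, which basal mammary cells express normally (27.5, 26.7 and 19.8 FPKM in culture, a median of 5.03 FPKM, range 3.88 to 13.1, in allografts, log2 difference −1.70 ± 0.32 (SE), adjusted p = 0.00192), and Foxc1, a forkhead factor of basal-like cells (10.4, 22.3 and 23.7 and a median of 4.47 FPKM, range 2.61 to 8.67, log2 difference −1.73 ± 0.40 (SE), adjusted p = 0.00669). Foxc1 lost its call without the Brca1het or the Brca1hom culture. Snai1 lay above and Snai2 below every culture in all 7 allografts.

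Mesenchymal effectors and matrix genes were mostly higher. Macrophage and endothelial genes were higher in the same libraries, as given above. Col1a1, Col1a2, Pdgfra and Pdgfrb, given below, were also the fibroblast markers checked, and all of them were called higher. Host and graft RNA were not separated, so the part of host macrophages, vessels and fibroblasts in these results was not tested. Of 17 tested effectors 10 rose and 2 fell, Nt5e and Tnc; Nt5e lost its call without the Brca1het culture, and Tnc without any of the 3 cultures or allograft 6C. Vim (vimentin), the main mesenchymal filament, was at 149, 229 and 368 FPKM in the cultures and a median of 2184 FPKM, range 1355 to 3192, in the allografts (log2 difference 3.08 ± 0.30 (SE), adjusted p = 3.51e-05). S100a4, a calcium-binding protein of fibroblasts and motile cells, was at 76.5, 102 and 106 FPKM in the cultures and a median of 1247 FPKM, range 1166 to 1356, in the allografts (log2 difference 3.69 ± 0.18 (SE), adjusted p = 4.10e-07). Pdgfrb and Pdgfra, growth factor receptors of mesenchymal cells, went from 0.341, 0.346 and 0.258 FPKM to a median of 47.5 FPKM, range 35.97 to 81.8, and from 2.85, 1.32 and 1.89 to a median of 63.4 FPKM, range 21.3 to 122. S100a4 varied least, and both receptors spread more widely over the allografts. Loxl2, which crosslinks collagen, rose from 0.0608, 0.328 and 0.104 to a median of 60.1 FPKM, range 40.6 to 91.4 (log2 difference 5.64 ± 0.27 (SE), adjusted p = 4.10e-07). Loxl2 and Pdgfrb, under 1 FPKM in every culture, passed the filter only through the allografts. Axl, a receptor kinase often linked with the mesenchymal state, was already high in the cultures, at 253, 132 and 155 FPKM, and at a median of 189 FPKM, range 134 to 237, in the allografts (adjusted p = 0.515).

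Of 23 tested fibrillar collagens and crosslinkers 18 rose and 0 fell (median difference 2.95). Col1a1 was at 5.33, 6.42 and 6.79 FPKM in the cultures and a median of 559 FPKM, range 244 to 945, in the allografts (log2 difference 5.92 ± 0.38 (SE), adjusted p = 2.49e-06), and Col3a1 went from 2.72, 3.98 and 6.92 to a median of 460.3 FPKM, range 153 to 565 (log2 difference 6.10 ± 0.43 (SE), adjusted p = 4.47e-06). Col1a2, the partner chain of Col1a1, ranged more widely among the allografts, from 39.2 in allograft 1 to 3173 in 10C (log2 difference 6.06 ± 1.14 (SE), adjusted p = 0.00207). Bgn (biglycan), a matrix proteoglycan, stood at 6.91, 4.07 and 7.85 FPKM in cultures and a median of 1799.7 FPKM, range 499 to 2642, in allografts (log2 difference 7.74 ± 0.51 (SE), adjusted p = 2.87e-06). Of 22 tested proteases and inhibitors 14 rose: Mmp2, a gelatinase of stromal cells, went from 5.05, 3.35 and 5.204 FPKM to a median of 216 FPKM, range 68.03 to 552 (log2 difference 4.89 ± 0.51 (SE), adjusted p = 5.50e-05). Mmp9, a gelatinase also made by macrophages and neutrophils, went from 0.329, 0.716 and 0.449 to a median of 49.9 FPKM, range 17.3 to 96.7 (log2 difference 4.98 ± 0.52 (SE), adjusted p = 5.42e-05). For the collagens, Bgn and both gelatinases named, every allograft lay above every culture. Timp3, an inhibitor of metalloproteases, was the 1 that fell, with 54.7, 373 and 686 FPKM in culture and a median of 39.98 FPKM, range 9.91 to 63.1, in allografts (log2 difference −3.18 ± 0.32 (SE), adjusted p = 4.31e-05). Within the basement membrane list 6 of 13 tested genes rose, against a background of 23.9%, and 3 without the Brca1het or the Brca1hom culture. Lama5, the laminin chain of epithelial basement membranes, fell from 18.5, 11.7 and 11.8 to a median of 0.454 FPKM, range 0.219 to 1.45 (log2 difference −3.22 ± 0.28 (SE), adjusted p = 1.84e-05). Nid2 rose from 0.0566, 0.0358 and 0.02205 to a median of 6.005 FPKM, range 3.73 to 9.68 (log2 difference 2.76 ± 0.25 (SE), adjusted p = 2.12e-05).

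**Figure D3:**
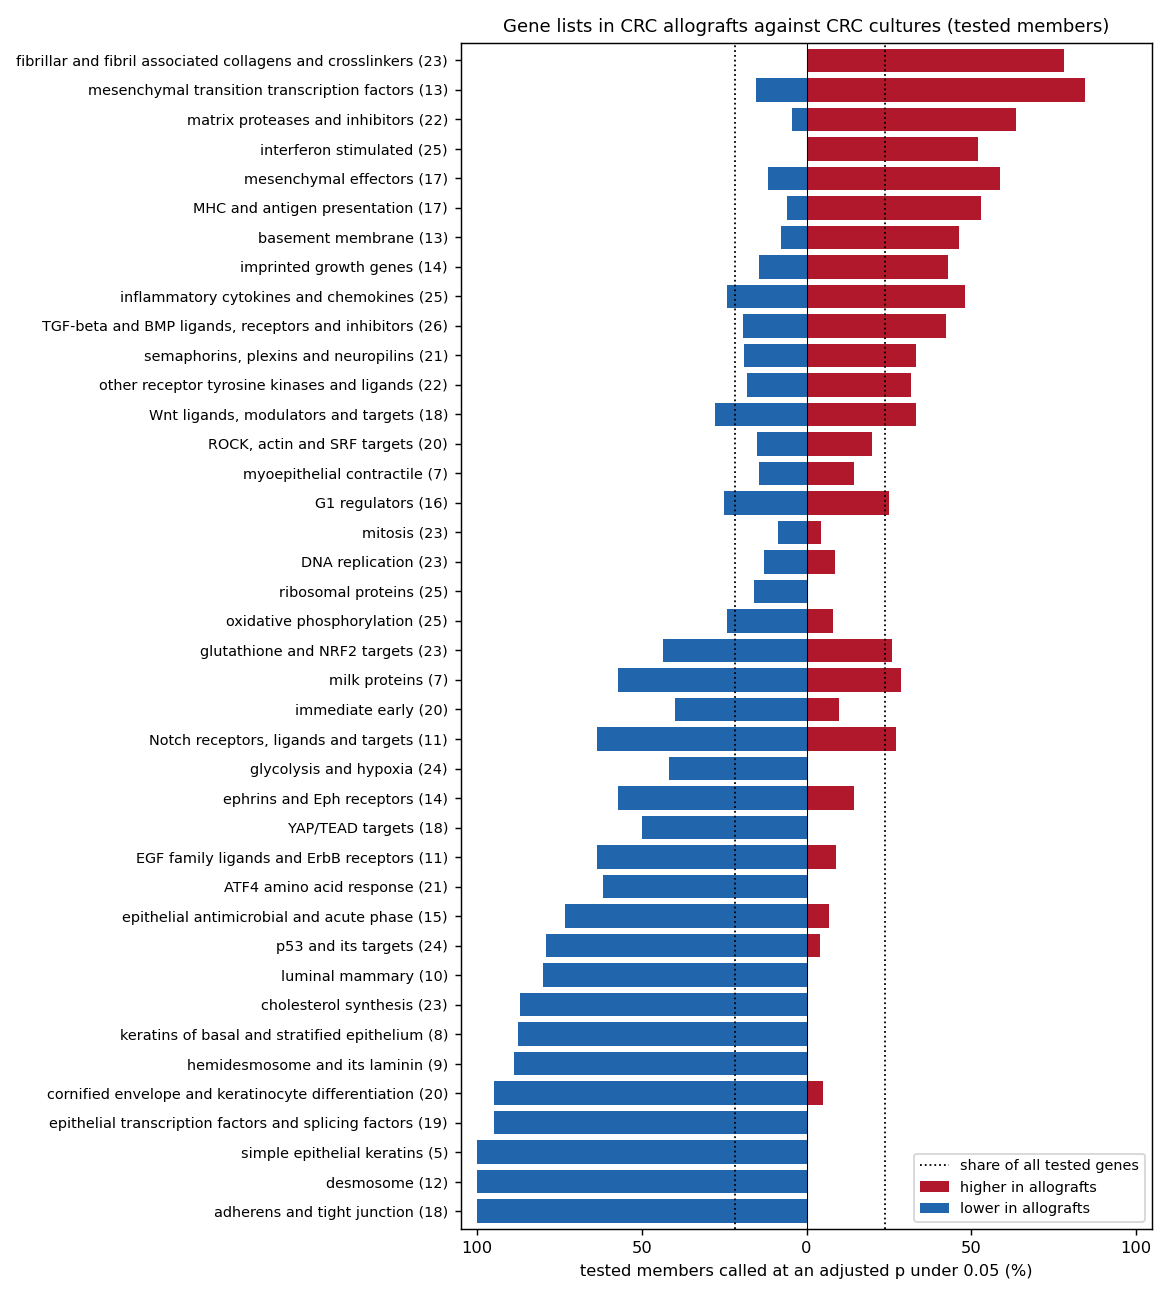
Bars give, for each gene list on the y axis (tested members in brackets), the share of tested members called higher (right, red) or lower (left, blue) in CRC allografts, in percent on the x axis, and dotted lines mark the shares of all tested genes, 23.9% higher and 21.6% lower. Junction, desmosome and simple keratin genes were all lower, and mesenchymal transition factors and collagens have the longest bars to the right among the lists drawn, which leave out the cell type lists and lists with under 5 tested members.

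In the EGF family 7 of 11 tested genes fell and 1 rose. The ligands Areg and Tgfa went from 35.8, 47.2 and 50.9 FPKM to a median of 5.29 FPKM, range 0.596 to 8.45, and from 14.48, 10.1 and 6.500 to a median of 0.204 FPKM, range 0.116 to 0.932, and the receptors Egfr (named after its values were seen) and Erbb3 from 44.7, 26.5 and 33.2 to a median of 5.27 FPKM, range 3.71 to 10.7, and from 11.3, 12.9 and 10.5 to a median of 0.121 FPKM, range 0.0955 to 1.25. Errfi1, a feedback inhibitor of Egfr, was the member that rose, from 31.99, 35.99 and 36.03 to a median of 96.1 FPKM, range 56.3 to 151 (log2 difference 1.36 ± 0.23 (SE), adjusted p = 0.00126). Hbegf, another ligand, was at 24.7, 15.4 and 21.2 and a median of 20.8 FPKM, range 8.03 to 29.9 (adjusted p = 0.825). So these 4 of the members that fell were below every culture in all 7 allografts. Hbegf overlapped, as did Erbb2, which also fell and is given above. Of 22 other tested receptor tyrosine kinases and ligands 7 rose and 4 fell, not far from the background shares of 23.9% higher and 21.6% lower. Fgfr2, whose main splice form in epithelia receives signals from stroma, fell from 16.1, 17.2 and 11.2 to a median of 1.496 FPKM, range 0.272 to 2.33 (log2 difference −2.73 ± 0.23 (SE), adjusted p = 1.22e-05). Fgfr1 was chosen after its values were seen, and it went the other way, from 10.3, 12.6 and 16.4 FPKM to a median of 98.7 FPKM, range 74.02 to 111 (log2 difference 2.71 ± 0.22 (SE), adjusted p = 1.10e-05). Of the collagen receptors Ddr1, the epithelial one, fell from 31.6, 27.5 and 34.4 to a median of 7.15 FPKM, range 0.904 to 12.7, and Ddr2, the mesenchymal one, rose from 0.521, 0.893 and 5.42 to a median of 30.1 FPKM, range 26.6 to 43.5 (log2 difference 3.60 ± 0.27 (SE), adjusted p = 5.68e-06). Hgf, the ligand of Met, went from 0.355, 0.413 and 0.628 FPKM to a median of 10.3 FPKM, range 6.38 to 13.4 (log2 difference 2.94 ± 0.24 (SE), adjusted p = 1.23e-05).

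In the TGF-beta and BMP list 11 of 26 tested genes rose and 5 fell, against backgrounds of 23.9% and 21.6%. The share that fell was near its background, and without the Brca1hom culture 7 rose. Ltbp2, a matrix protein related to the carriers of latent TGF-beta, was at 0.337, 0.733 and 1.84 FPKM in the cultures and a median of 43.3 FPKM, range 13.2 to 63.5, in the allografts (log2 difference 4.14 ± 0.29 (SE), adjusted p = 3.92e-06). Tgfbi, named for its induction by TGF-beta, went from 27.2, 15.95 and 6.86 FPKM to a median of 303 FPKM, range 250.3 to 399 (log2 difference 4.41 ± 0.34 (SE), adjusted p = 7.15e-06). Fst (follistatin), which binds activins, fell from 88.9, 151 and 259.5 to a median of 8.44 FPKM, range 1.87 to 19.5. Bmp7 went from 13.5, 14.9 and 14.03 to a median of 0.0326 FPKM, range 0.00707 to 0.1099 (log2 difference −3.87 ± 0.16 (SE), adjusted p = 1.92e-07). Id1, a direct BMP target, also fell from 50.2, 38.3 and 32.5 to a median of 6.59 FPKM, range 4.32 to 9.03 (log2 difference −2.43 ± 0.24 (SE), adjusted p = 3.95e-05).

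Among Wnt genes 6 of 18 tested rose and 5 fell, not far from the background shares of 23.9% higher and 21.6% lower. Dkk2, a secreted Wnt modulator, was listed at 0 in 2 cultures and at 0.0238 FPKM in the Brca1het culture, and stood at a median of 75.9 FPKM, range 33.6 to 158, in the allografts (log2 difference 6.27 ± 0.35 (SE), adjusted p = 9.56e-07). Sfrp2, a secreted Wnt-binding protein, rose from 0.104, 0.161 and 0.565 to a median of 40.9 FPKM, range 13.2 to 153, and its relative Sfrp1 fell from 10.4, 7.28 and 7.81 to a median of 1.26 FPKM, range 0.318 to 5.75. The relatives thus moved in opposite directions, with no overlap between groups for either. Dkk2 and Sfrp2, under 1 FPKM in every culture, passed the filter only through the allografts. Lgr4, a receptor for R-spondins, fell from 11.1, 24.7 and 29.8 to a median of 1.55 FPKM, range 1.44 to 2.28 (log2 difference −3.08 ± 0.23 (SE), adjusted p = 6.37e-06). In the Notch list 7 of 11 tested genes fell and 3 rose: the ligand Jag2 went from 26.01, 13.3 and 11.3 FPKM to a median of 0.606 FPKM, range 0.159 to 1.07, and the receptor Notch1 from 45.6, 18.3 and 17.6 to a median of 3.38 FPKM, range 1.39 to 6.198. The 3 that rose were Notch2, and Notch4 with its ligand Dll4, both known from endothelium, at 1.15 to 7.85 and 1.79 to 5.03 FPKM in allografts. The contact receptor Epha1 and the ligand Efna3 fell from 109, 69.9 and 106 to a median of 0.432 FPKM, range 0.318 to 2.77, and from 37.6, 46.7 and 58.2 to a median of 0.305 FPKM, range 0.0789 to 0.583. Sema7a, a membrane-anchored semaphorin, rose from 0.956, 0.312 and 0.435 to a median of 60.4 FPKM, range 26.1 to 187 (log2 difference 5.50 ± 0.51 (SE), adjusted p = 2.42e-05), with allografts 2 and 12 highest.

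**Figure D4:**
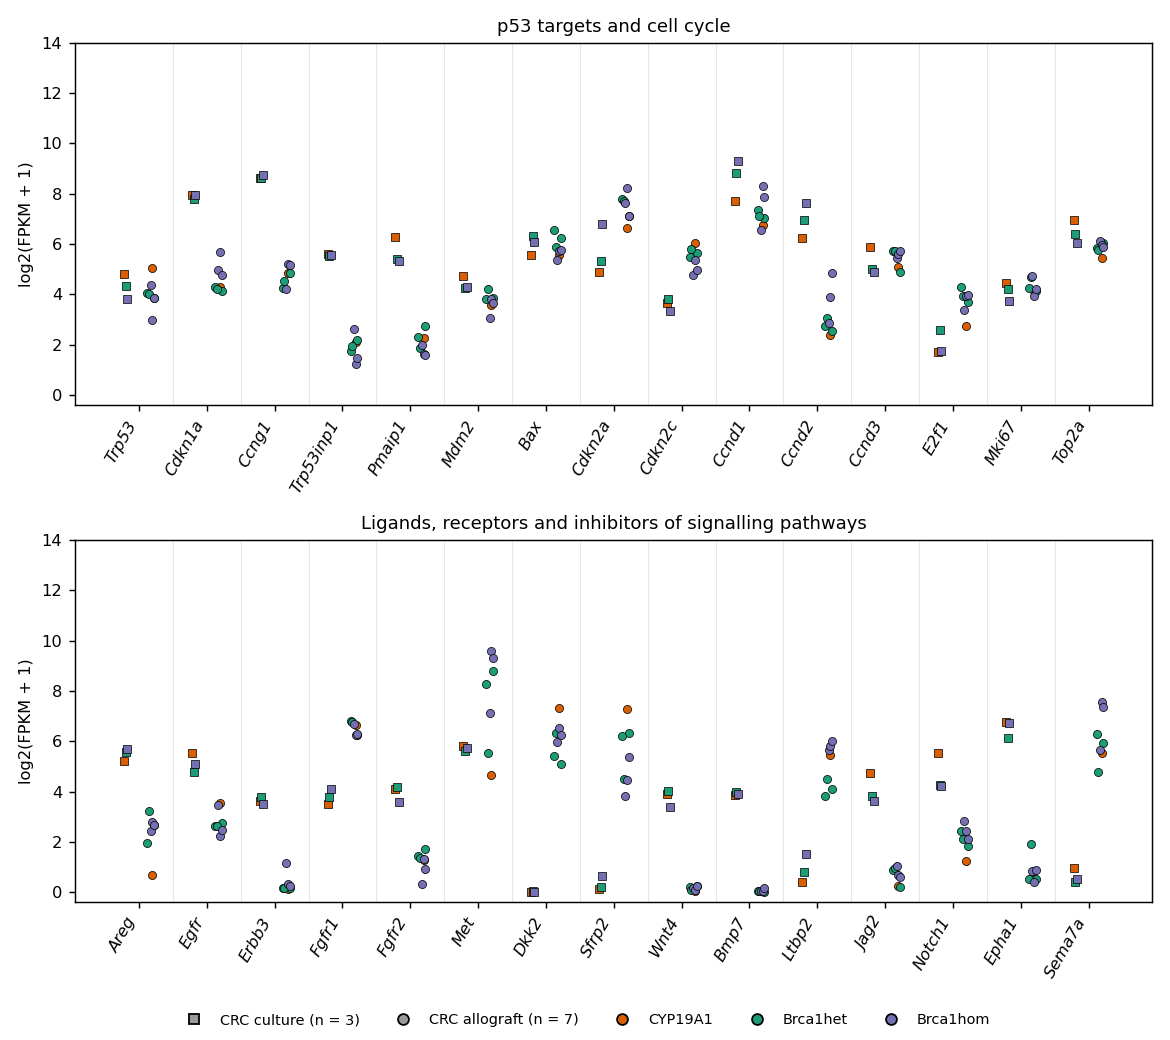
Points are single libraries (squares, 3 CRC cultures; circles, 7 CRC allografts; colour, genotype) with log2(FPKM + 1) on the y axis and genes on the x axis, p53 targets and cell cycle genes above and signalling genes below. Trp53 overlaps between the groups while Cdkn1a, Ccng1, Trp53inp1 and Pmaip1 do not, and Met spreads from below to far above the cultures.

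Targets of p53 fell while Trp53 itself did not pass the test. Of 24 tested genes in the list, which includes Trp53, 19 fell (median difference −1.29) and 1, Sesn1, rose; Sesn1 lost its call without the CYP19A1 culture, the Brca1hom culture or allograft 6C. Cdkn1a (p21), the inhibitor that halts the cycle after damage, was at 246, 221 and 244 FPKM in the cultures and a median of 18.5 FPKM, range 16.4 to 49.98, in the allografts (log2 difference −3.31 ± 0.24 (SE), adjusted p = 5.68e-06). Ccng1 went from 394, 397 and 423 FPKM to a median of 27.7 FPKM, range 17.7 to 36.4 (log2 difference −3.92 ± 0.25 (SE), adjusted p = 2.64e-06), and Trp53inp1 from 48.3, 44.6 and 46.4 to a median of 2.87 FPKM, range 1.35 to 5.17 (log2 difference −3.62 ± 0.29 (SE), adjusted p = 9.92e-06). The BH3-only death gene Pmaip1 (Noxa) went from 77.3, 40.9 and 39.2 to a median of 3.03 FPKM, range 1.98 to 5.74 (log2 difference −3.50 ± 0.25 (SE), adjusted p = 4.15e-06). No allograft reached a culture value for any of the 4. Mdm2, the ligase that degrades p53 and is itself a target, was at 25.4, 18.1 and 18.6 FPKM and a median of 12.97 FPKM, range 7.34 to 17.5 (log2 difference −0.69 ± 0.23 (SE), adjusted p = 0.0344), a call that was lost without the CYP19A1 or the Brca1hom culture or without allograft 6C, 10B or 10C. Bax, another death gene, was at 47.04, 77.9 and 66.3 and a median of 52.7 FPKM, range 40.1 to 93.5 (adjusted p = 0.4205). Cdkn1a, Ccng1, Trp53inp1 and Pmaip1 were lower in the allografts of each of the 3 genotypes.

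In the G1 list 4 of 16 tested genes rose and 4 fell, close to the background shares. Cdkn2a, which encodes p16 and p19Arf, was at 28.4, 39.6 and 109.9 FPKM in the cultures and a median of 196 FPKM, range 97.6 to 300.2, in the allografts, with some overlap (log2 difference 1.58 ± 0.32 (SE), adjusted p = 0.00323). Cdkn2c (p18) rose from 11.6, 13.1 and 9.01 FPKM to a median of 44.4 FPKM, range 26.3 to 65.3 (log2 difference 1.94 ± 0.20 (SE), adjusted p = 5.05e-05). E2f1 went from 2.301, 5.01 and 2.37 to a median of 14.3 FPKM, range 5.72 to 18.6 (log2 difference 1.53 ± 0.24 (SE), adjusted p = 7.58e-04). Ccnd2, a D-type cyclin, fell from 73.9, 123 and 198 to a median of 6.22 FPKM, range 4.19 to 27.8 (log2 difference −3.94 ± 0.37 (SE), adjusted p = 2.67e-05). Ccnd3 was at 58.7, 31.7 and 29.1 and a median of 47.96 FPKM, range 28.99 to 51.6 (adjusted p = 0.594). Proliferation genes hardly separated the groups: 1 of 23 tested mitosis genes rose and 2 fell, and 2 of 23 DNA replication genes rose and 3 fell. Both shares were under the background, although without allograft 1 the replication genes that rose numbered 7, those that fell numbered 0 without the Brca1het culture, and each mitosis count moved by 1 with several libraries. Mki67, present in all cycling cells, was at 21.00, 17.5 and 12.2 FPKM in culture and a median of 17.6 FPKM, range 14.46 to 25.9, in allografts (adjusted p = 0.532). Top2a, another marker of dividing cells, was at 123, 83.9 and 64.8 FPKM in culture and a median of 57.7 FPKM, range 43.1 to 69.2, in allografts (adjusted p = 0.0697); it was called lower without the Brca1hom culture (0.0284) or without allograft 1 (0.0444).

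In several metabolic lists more genes fell than rose, against backgrounds of 21.6% lower and 23.9% higher. In the cholesterol synthesis list 20 of 23 tested genes fell and 0 rose, and no library left out changed that count by more than 1.5 times. Hmgcs1, an early enzyme of the pathway, was at 116, 184 and 150.4 FPKM in the cultures and a median of 18.7 FPKM, range 7.67 to 28.4, in the allografts (log2 difference −2.90 ± 0.36 (SE), adjusted p = 1.63e-04). Every allograft lay below every culture for this gene. Srebf2, the factor that induces the pathway, was at 45.5, 45.9 and 51.5 and a median of 34.8 FPKM, range 17.05 to 50.05 (adjusted p = 0.124). In the ATF4 amino acid response 13 of 21 tested genes fell and 0 rose. Cth, of cysteine synthesis, fell from 28.5, 29.8 and 53.3 FPKM to a median of 2.64 FPKM, range 1.31 to 6.71. Asns, asparagine synthetase, went from 363, 237 and 325 to a median of 58.6 FPKM, range 27.3 to 159, while Atf4 itself was at 162, 329 and 362 and a median of 211 FPKM, range 57.5 to 263 (adjusted p = 0.289). Of 24 glycolysis and hypoxia genes 10 fell, but 4 without the Brca1het culture and 5 without the CYP19A1 culture or allograft 6C. Of 23 glutathione and NRF2 genes 10 were lower and 6 higher, and the higher share lay near its background. The higher count was 3 without the Brca1het or the Brca1hom culture. Gpx2, the gastrointestinal glutathione peroxidase, fell from 13.7, 179 and 77.3 FPKM and was listed at 0 in all allografts but 10C (0.0265). Gsta4 fell from 1347, 1613 and 1088 to a median of 61.4 FPKM, range 15.2 to 132 (log2 difference −4.57 ± 0.56 (SE), adjusted p = 1.58e-04). Hmox1, the haem oxygenase that macrophages also make, rose from 32.5, 27.6 and 27.5 to a median of 96.1 FPKM, range 49.6 to 139.5 (log2 difference 1.57 ± 0.35 (SE), adjusted p = 0.00499).

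Immediate early genes gave 8 of 20 lower and 2 higher, against backgrounds of 21.6% and 23.9%, with 4 lower without the Brca1het culture. Fos was at 58.3, 141 and 97.04 FPKM in the cultures and a median of 6.84 FPKM, range 5.07 to 18.5, in the allografts (log2 difference −3.43 ± 0.39 (SE), adjusted p = 1.04e-04), whereas its relative Fosl1 (Fra-1) rose from 7.95, 11.9 and 11.3 to a median of 107 FPKM, range 26.3 to 149 (log2 difference 2.68 ± 0.44 (SE), adjusted p = 9.33e-04). Of 18 YAP/TEAD targets 9 fell and 0 rose, and 4 to 5 fell without the Brca1het culture, the CYP19A1 culture or allograft 6C. The classic members Ctgf and Cyr61 were at 16.9, 128 and 242 and 77.9, 101 and 99.01 FPKM in the cultures and a median of 82.3 FPKM, range 36.5 to 123, and a median of 67.7 FPKM, range 53.3 to 120.1, in the allografts, and neither passed the test (adjusted p = 0.699 and 0.539).

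Macrophage genes were higher in the same allografts, and their part in the immune values that follow was not tested. In the antigen presentation list 9 of 17 tested genes rose and 1 fell, against backgrounds of 23.9% and 21.6%. Cd74 and H2-Aa, of the class II pathway that macrophages use, went from 1.04, 1.12 and 2.21 FPKM to a median of 589.8 FPKM, range 201 to 1108, and from 0.379, 0.4697 and 1.03 to a median of 107 FPKM, range 49.5 to 321. H2-K1, a class I gene present in nearly every cell, was at 149, 212 and 206 and a median of 186 FPKM, range 107 to 350.3 (adjusted p = 0.809). Tap1, the class I peptide transporter, fell from 28.99, 15.7 and 23.2 to a median of 6.79 FPKM, range 4.06 to 13.8 (log2 difference −1.47 ± 0.26 (SE), adjusted p = 0.00139). Of 25 tested cytokines and chemokines 12 rose and 6 fell, the share that fell being near its background. The keratinocyte cytokine Il1a fell from 116, 20.5 and 12.2 FPKM to a median of 0.982 FPKM, range 0.432 to 2.13 (log2 difference −3.78 ± 0.48 (SE), adjusted p = 1.85e-04). Il1b, its myeloid relative, rose from 0.0328, 0.109 and 0.0891 to a median of 25.2 FPKM, range 15.8 to 46.4 (log2 difference 4.76 ± 0.32 (SE), adjusted p = 3.16e-06). Interferon-stimulated genes gave 13 of 25 higher and 0 lower, and 7 to 8 without the CYP19A1 culture, the Brca1het culture or allograft 6C. Oasl2 went from 1.899, 1.05 and 3.29 to a median of 14.6 FPKM, range 10.1 to 20.6 (log2 difference 2.44 ± 0.27 (SE), adjusted p = 8.21e-05). Isg15 was at 19.3, 27.6 and 44.1 and a median of 18.9 FPKM, range 11.3 to 48.8 (adjusted p = 0.324).

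Imprinted genes are expressed from 1 parental copy, and many are growth regulators. Of 14 tested 6 rose and 2 fell (4 without allograft 12), against backgrounds of 23.9% and 21.6%. Only 3 rose without the Brca1het culture and 2 without the Brca1hom culture. Mest was at 2.94, 1.396 and 0.927 FPKM in the cultures and a median of 19.8 FPKM, range 7.92 to 255, in the allografts, highest in 6C (log2 difference 3.93 ± 0.62 (SE), adjusted p = 7.36e-04). Dcn, the matrix proteoglycan decorin, rose from 12.8, 9.03 and 16.9 to a median of 558 FPKM, range 316 to 1736 (log2 difference 5.76 ± 0.42 (SE), adjusted p = 5.06e-06). Snrpn, a splicing protein gene, fell from 22.3, 18.6 and 15.4 FPKM to at most 0.406 in 6 allografts, with allograft 1 at 7.81 (log2 difference −3.56 ± 0.58 (SE), adjusted p = 9.11e-04). Sgce stood at 109 FPKM in 10B, 83.2 in 10C, 50.2 in 12, 27.6 in 1 and 18.2 in 2, but at 2.25 in 6C and 2.24 in 11C, after 0.0249, 0.194 and 0.202 in culture (log2 difference 3.93 ± 1.05 (SE), adjusted p = 0.01299); without the Brca1het or the Brca1hom culture its call was lost.

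By the SD of log2(FPKM + 1) over the 7 allografts, the 10 most variable genes with a mean of 10 FPKM or more were all small RNA genes such as Mir344b (0 to 7613 FPKM), whose short transcripts a poly(A) library measures poorly. Among protein-coding genes some of the spread ran along the chromosome. Genes were put in their RefSeq order, and runs of at least 4 neighbouring tested genes were sought in which each lay at least 1.5 on the log2 scale above its median over the 10 libraries; this scan and the genes named from it were chosen after values were seen. In a single allograft 1.04% to 3.19% of the 11365 ordered genes passed that height. The scan found 16 such runs in 6 allografts and 0 in 6C. Around Met, the receptor of Hgf, on chromosome 6, allograft 10B had a run of 8 genes from Tes to Lsm8, 10C a run of 6 from Cav1 to Lsm8, allograft 12 a run of 7 from Tes to Wnt2, and allograft 2 a run of 4 from Tes to Met that ended before Capza2. Met stood at 443 FPKM in 10B, 309.6 in 10C, 765 in 2 and 637 in 12, at 139 in 1, 45.4 in 11C and 24.3 in 6C, and at 54.7, 48.2 and 52.5 in the cultures (adjusted p = 0.1901). Capza2 was at 2398 FPKM in 10B, 1596 in 10C and 2292 in 12, but at 137 in 2, within the culture range of 121 to 144.

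Another stretch lay on chromosome 9. Allograft 11C had a run of 10 genes that ended with Tmem123, Birc2, Birc3, Yap1 and Arhgap42. Yap1, the transcriptional coactivator of the Hippo pathway, was at 1075 FPKM in 11C and 261 in allograft 1, against 20.96 to 50.3 in the other 5 allografts and 39.3, 54.5 and 50.7 in the cultures. Birc2, an inhibitor of apoptosis, showed the same 2 libraries high, at 203 and 90.5 FPKM beside 4.24 to 10.2 in the other 5. A stretch of its own was found on chromosome 5 in allograft 2 alone, 8 genes from Cdk6 to Mterf1a. Cdk6, the kinase partner of D-type cyclins, was at 69.4 FPKM there and 2.96 to 6.52 in the other allografts. On chromosome 2, 10B and 10C shared a run of 5 genes that includes Snai1, from Slc9a8 to Ube2v1. Col1a2 and Sgce, given above, also lay in such stretches, on chromosome 6. There 10B had a run of 6 genes from Tfpi2 to Sgce that includes Col1a2, and 10C a run of 4 from Tfpi2 to Col1a2. In allograft 1 the 2 runs were a granzyme family cluster and the Apoe cluster. Cultures had 7 to 9 runs each, and these included gene families such as keratins, kallikreins and serpins. No DNA measurement was analysed here, and no cause was tested.

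**Figure D5:**
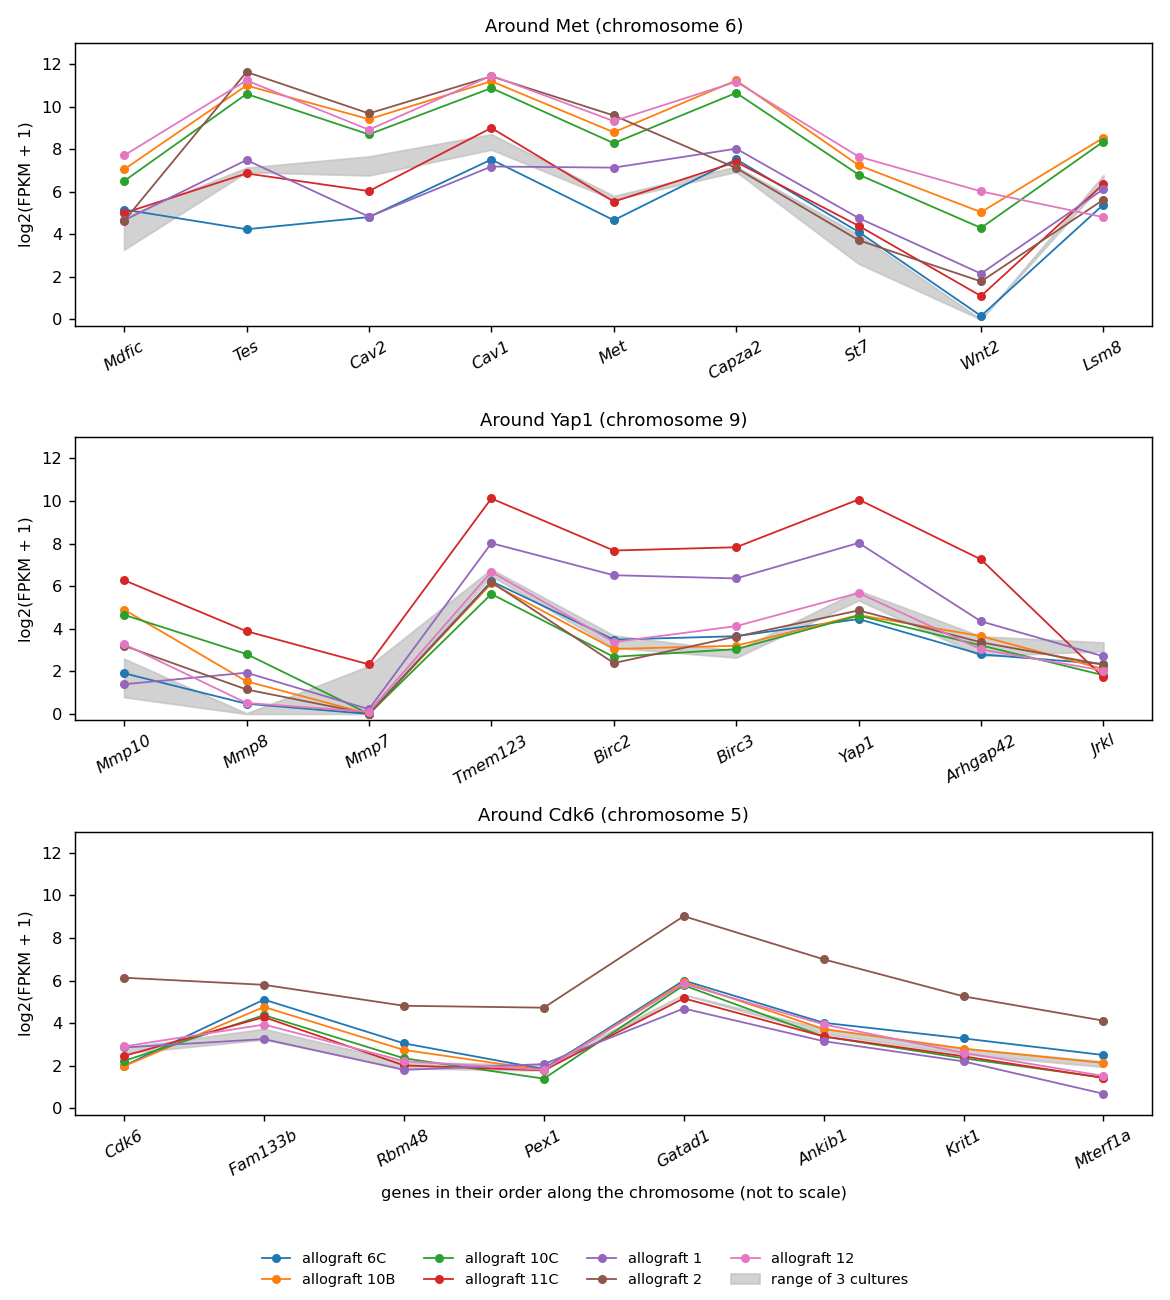
Each line is 1 of the 7 CRC allografts across neighbouring genes on the x axis (in chromosome order, not to scale), with log2(FPKM + 1) on the y axis and the range of the 3 cultures in grey. Allografts 10B, 10C, 12 and, up to Met, 2 lie above the rest on chromosome 6, and allograft 2 alone on chromosome 5. On chromosome 9 allograft 11C stands high from Tmem123 to Arhgap42, and allograft 1 is also high for Birc2 and Yap1.

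Whether the change from culture to allograft differed between Brca1hom and Brca1het was tested as an interaction, in which 5 of 12261 genes (0.0408%) were called and 312 had an unadjusted p under 0.05. Csn1s2a, a casein, stood at 22.4 FPKM in the Brca1hom culture and 1.52 in the Brca1het culture, and was listed at 0 in all allografts (difference of the effects −3.22 ± 0.26 (SE), adjusted p = 0.0263). Prl8a9, of the prolactin family, was at 28.1 FPKM in the Brca1het culture and 1.34 in the Brca1hom culture, with at most 0.168 in any allograft (3.67 ± 0.30, adjusted p = 0.0263). Cldn6, a claudin of early epithelia, and Stfa1, a protease inhibitor, were likewise at 15.4 and 19.7 FPKM in the Brca1het culture against 0.386 and 0.802 in the Brca1hom culture (differences of the effects 3.46 ± 0.27 and 3.61 ± 0.29, adjusted p = 0.0263 for both). For these 4 genes the allografts of both genotypes were near 0, so the difference lay between 2 single cultures. The same was true of Mir686, at 78.9 FPKM in the Brca1hom culture and under 0.01 in every other library. Gsta1, Gpa33 and Csn2, the others among the 4 smallest p-values in each direction, did not pass (adjusted p = 0.0581, 0.0534 and 0.0806). Without 1 allograft at a time the number of called genes was 1 to 14, the 14 without allograft 1. With 1 culture a genotype, the spread in this test came from the allografts alone. Its standard errors and p-values therefore leave out how cultures of a genotype vary. A genotype difference in culture and a difference between these dishes cannot be told apart.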

How the data were processed

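RNA was measured by paired-end sequencing of poly(A) libraries. The authors deposited FPKM per gene from Cuffnorm, and the submitters' processing notes name FastQC, Trim Galore, TopHat, Cufflinks and mm9, with no versions. FPKM values do not state depth, and their smallest values gave only a rough guide to it. Precision therefore rests on the spread between libraries, and 0 value columns of the table were left unmapped. Samples were grouped by their labels.

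Values of the 10 libraries were taken as log2(FPKM + 1). Genes whose mean reached 1 FPKM were tested with limma 3.58.1 (R 4.3.3; lmFit, eBayes with trend) with genotype and state in the model, and with a genotype by state interaction for Brca1hom against Brca1het. Adjusted p-values are Benjamini-Hochberg values over all tested genes, two-sided, called under 0.05. The code was tested on simulated data. Figures were drawn with matplotlib 3.10.9. EpiC and primary cancer libraries were not used here.

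The members, gene lists and markers were chosen with earlier results of these data known. Named genes were the genotype genes, the 12 largest called changes in each direction whose higher group averaged 10 FPKM or more, up to 4 called members a direction and 3 uncalled members of each list, the 10 most variable genes, the 4 smallest interaction p-values a direction, and the cell type markers. Krt8, Egfr, Fgfr1, Vim, Mdm2, Mki67, Crb3, Elf3 and the genes of chromosomal runs were chosen after their values were seen. So were Cldn1, Cgn, Grhl1 and Ovol2, named as genes without an E-box. Alternatives were the pseudocount, the filter, median ratio scaling, no genotype term, 2 genotypes only, 10B and 10C averaged, robust variance, each library left out and, chosen after seeing the data, no small RNA genes. Promoter windows came from RefSeq (GRCm38.p6).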

Additional observations from a re-analysis of the deposited data

Results flagged for a closer look

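Among the 7 allografts a library was marked when its gap to the nearest other one, as a share of the range of log2(FPKM + 1), exceeded Dixon's critical value, which chance does in about 1 in 20 groups. Of 164 tested genes named in the text, 32 were marked, 19 of them through allograft 1, and 3 of 49 gene lists, all through allograft 1. Mean log2(FPKM + 1) over the junction list was 2.24 in allograft 1 and 0.683 to 1.30 in the other 6. The epithelial factors averaged 1.54 against 0.738 to 0.982, and the T, B and NK cell genes 1.51 against 0.567 to 0.880, in the same library.

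Epithelial genes made up most of the genes that were highest in allograft 1. There Epcam was at 25.6 FPKM, Cdh1 at 11.2, Cldn4 at 11.8, Crb3 at 1.03 and Dsp at 4.24, and none exceeded 1.74 in another allograft. Among the factors and the receptor Erbb3, Ehf was at 2.41, Elf3 at 2.24, Elf5 at 1.35, Esrp1 at 1.42 and Erbb3 at 1.25 FPKM. Saa3 was at 1161 FPKM, Gzma at 31.03, Apoe at 12218 and Snrpn at 7.81 in the same library. Allograft 1 was lowest for Atf4 (57.5 FPKM, others 193 or more), Hbegf (8.03), Hmgcs1 (7.67), Mcam (8.76) and Prrx1 (15.4).

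Allograft 6C was lowest for Krt8 (17.6 FPKM), for the collagen receptor Ddr1 (0.904) and for Timp3 (9.91), and allograft 2 for the pericyte gene Rgs5 (2.400). Allograft 11C was highest for Arhgap42 (152 FPKM), Epha1 (2.77) and Mir344b (7613), and allograft 2 for Cdk6 (69.4). Some marks concerned values near 0: Bmp7 at 0.1099 FPKM and Stfa1 at 0.209 in allograft 12, Csn2 at 0.0274 and Mir686 at 6.62e-04 in 10B, and Gpx2 at 0.0265 in 10C.

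Limma's interaction test marked Mir686 (log2 −6.31), Csn1s2a (−3.22), Cldn6 (3.46), Stfa1 (3.61) and Prl8a9 (3.67) for the change from culture to allograft in Brca1hom against Brca1het. In each case the larger level was in 1 of the 2 cultures. The test does not measure how cultures vary, so a genotype difference was not shown.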

How the results depend on the processing

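The number of called genes, 5582, ranged from 3913 (filter at 5 FPKM) to 6488 (no filter) over the 9 other processing choices, and no called gene changed sign in any fit. Leaving out 1 library at a time gave 3624 to 6377 called genes, 1916 to 3317 of them higher and 1708 to 3060 lower. The lowest counts came without the Brca1het culture and the highest without allograft 1. CYP19A1 had 1 culture and 1 allograft, so with genotype in the model leaving out either gives the same estimates. Both equal the fit of Brca1het and Brca1hom only, so these fits are not separate checks. Of 2368 pairs of a called gene named in the text and another fit, 2310 stayed called, 58 were not called and 0 reversed; of 712 such pairs for genes not called, 11 became called. The interaction called 5 genes, 0 with a pseudocount of 0.1 and 1 with the filter at 5 FPKM, and 1 to 14 without 1 allograft at a time. Leaving out a Brca1het or Brca1hom culture leaves no interaction to fit. No paired analysis was possible because the labels of the CRC cultures carry no replicate number, and genotype, which the groups share, was already in the model. Depth is known only from a rough guide, by which the cultures were shallower, and 1 culture a genotype limits every genotype comparison. Host and graft RNA were not separated.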
